A study of Mus musculus with 8 samples.

Results

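The genes described here are 10 enzymes that handle superoxide, peroxides and carbonyl compounds in the cell: 3 superoxide dismutases (Sod1, Sod2 and Sod3), 4 peroxidases (Cat, Gpx1, Gpx4 and Prdx1) and 3 carbonyl reductases (Cbr1, Cbr3 and Cbr4). They were listed by name and matched to Ensembl gene IDs, and make up 10 of the 19493 endogenous genes counted. Sod1, Cbr1 and Cbr3 lie in the duplicated stretch of chromosome 16, so that Dp1Tyb cells carry 3 copies where wild-type (WT) cells carry 2, and the other 7 are on chromosomes that are not duplicated. RNAseq had been carried out on mouse embryonic fibroblasts (MEFs) grown from E14.5 embryos, in 4 WT and 4 Dp1Tyb libraries with the synthetic ERCC spike-in RNAs added to a fixed number of cells. The Dp1Tyb allele, Dp(16Lipi-Zbtb21)1TybEmcf, duplicates chromosome 16 from Lipi to Zbtb21 in every cell, and both genotypes were on the C57BL/6J.129P2 strain background given by the labels. Both groups were cultured in medium with serum and 2-mercaptoethanol, a reducing agent, so all levels are those of cells grown with an antioxidant.

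Superoxide is a by-product of respiration and a product of oxidases, and the superoxide dismutases turn it into oxygen and hydrogen peroxide. Catalase, the glutathione peroxidases and the peroxiredoxins then reduce hydrogen peroxide and other peroxides, the last 2 families with electrons from glutathione or thioredoxin. Carbonyl reductases use NADPH to reduce aldehydes, ketones and quinones, among them products of lipid oxidation. SOD1 and CBR1 are encoded on human chromosome 21, and both have long been discussed in Down syndrome because their dose is raised there.

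The libraries held 17698900 to 26471758 counts each. Counts from the duplicated region took 0.633% ± 0.0205 of a WT library and 0.916% ± 0.0443 of a Dp1Tyb library (SD, n = 4 each), with no overlap between the genotypes (exact permutation test, two-sided, p = 0.0286, which is the smallest that 4 against 4 libraries can give). The 10 genes were fitted under 2 scalings: to the spike-ins, which keeps differences in the RNA recovered per cell, and relative to the endogenous genes, which removes them. Levels per kilobase and other genes are given under relative scaling except where stated. Endogenous RNA per spike-in varied from 0.713 to 1.19 in WT and from 0.688 to 1.31 in Dp1Tyb, relative to the geometric mean of the 8, and this spread enters every value scaled to the spike-ins. Xist, the transcript of the inactive X chromosome, reached 36188 counts in WT replicate 2 and 38867 in Dp1Tyb replicate 1, against 9 to 60 in the other 6 libraries, so 1 library of each group bears a female pattern. The summed fibroblast markers, collagens and Pdgfr genes among them, came to 10627 to 20559 CPM (counts scaled to library size) in WT and 11617 to 19382 in Dp1Tyb, and all 8 markers were counted. In bulk RNA, fewer cells of a type and less RNA per cell cannot be told apart.

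All 3 duplicated genes lie on the plus strand of chromosome 16 (GRCm38). Sod1 (ENSMUSG00000022982) spans chr16:90220754-90226329, Cbr1 (ENSMUSG00000051483) chr16:93605853-93610505 and Cbr3 (ENSMUSG00000022947) chr16:93683215-93690990. Cbr1 and Cbr3 are separated by 72710 bases, and the end of Sod1 lies 3379524 bases before the start of Cbr1. The 250 bases upstream of the start of each, from RefSeq on GRCm38.p6, are shown because these are the control regions present in an extra copy together with the genes. Capitals mark GC boxes (GGGCGG on either strand) and the core of the antioxidant response element (TGACNNNGC on either strand), the element bound by the oxidative stress factor NRF2.
Sod1, chr16:90220512-90220761, plus strand: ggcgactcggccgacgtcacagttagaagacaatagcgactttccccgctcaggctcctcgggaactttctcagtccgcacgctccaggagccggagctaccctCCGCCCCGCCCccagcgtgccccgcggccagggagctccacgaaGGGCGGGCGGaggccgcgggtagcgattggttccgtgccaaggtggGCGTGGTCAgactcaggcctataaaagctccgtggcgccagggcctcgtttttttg
Cbr1, chr16:93607587-93607836, plus strand: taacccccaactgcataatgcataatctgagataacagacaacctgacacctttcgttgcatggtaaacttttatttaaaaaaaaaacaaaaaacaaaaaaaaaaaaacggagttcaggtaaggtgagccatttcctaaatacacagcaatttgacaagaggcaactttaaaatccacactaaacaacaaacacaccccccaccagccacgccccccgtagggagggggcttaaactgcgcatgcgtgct
Cbr3, chr16:93682969-93683218, plus strand: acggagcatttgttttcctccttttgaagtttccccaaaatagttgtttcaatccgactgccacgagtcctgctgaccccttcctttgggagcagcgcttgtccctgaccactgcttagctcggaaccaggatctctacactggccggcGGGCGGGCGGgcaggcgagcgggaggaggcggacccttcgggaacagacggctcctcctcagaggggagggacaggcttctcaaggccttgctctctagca
The Sod1 window held 4 GC boxes, beginning 146, 141, 102 and 98 bases before the start, as 2 overlapping pairs. It also held 1 antioxidant response element core, 56 bases before the start, which overlaps no GC box. The Cbr3 window held 2 overlapping GC boxes, 101 and 97 bases before the start, and the Cbr1 window, which lies inside the annotated span of the gene, held neither motif. Among 32851 such windows of all genes, 32.7% hold a GC box and 10.2% the antioxidant response element core. Base composition differed as well, with 66.4% G and C in the Sod1 window, 59.6% in that of Cbr3 and 41.6% in that of Cbr1. Entries were matched for 9 of the 10 genes, Sod3 being the exception.

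All 3 duplicated genes had higher means in Dp1Tyb than in WT MEFs under both scalings, with fitted folds of 1.52 to 1.80, and the folds of the 7 other genes were 0.990 to 1.31. No difference in any of the 10 genes passed an adjusted p of 0.05 over all genes tested by the quasi-likelihood test of edgeR, under either scaling. At that threshold the test called 0.0121% of the 16470 tested genes with the spike-in scaling and 0.0182% with the relative scaling. At an unadjusted p under 0.05 stood 2 of the 10 genes under spike-in scaling (Sod1 and Cbr1), beside 1.17% of all tested genes, and 4 under relative scaling (Sod1, Cbr1, Cbr3 and Gpx4), beside 4.27%. DESeq2 called Cbr1 and Cbr3 under relative scaling, where it called 0.363% of all genes with an adjusted p, and none of the 10 under spike-in scaling, where it called 0.0122%. Within the duplicated region itself, 43.8% and 53.6% of the 112 tested genes had an unadjusted p under 0.05 under the 2 scalings, and 0 and 0.893% passed the adjusted threshold in edgeR.

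**Figure D1:**
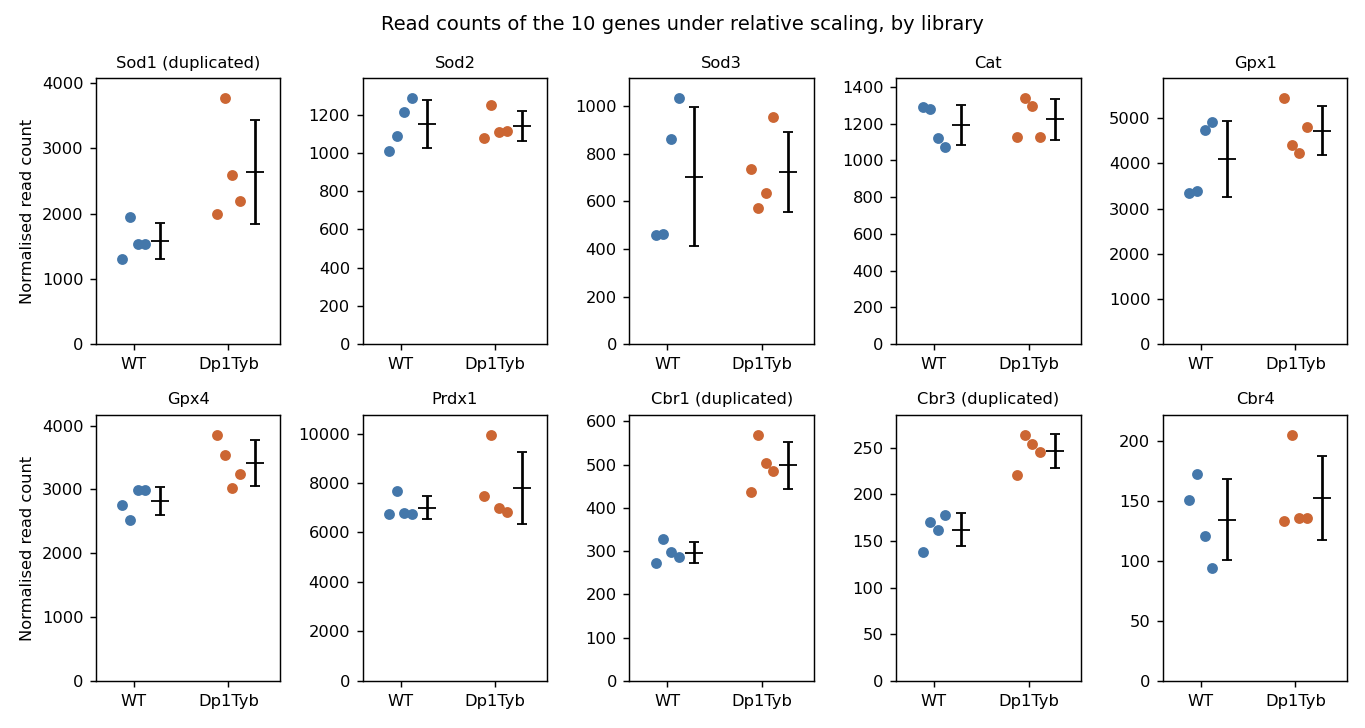
Normalised read counts under relative scaling for each of the 10 genes, with 1 point per library, WT in blue and Dp1Tyb in orange, and the mean with its SD (n = 4) as a black bar beside the points. In Sod1, Cbr1, Cbr3 and Gpx4 all 4 Dp1Tyb libraries lie above all 4 WT libraries, and in the other 6 genes the groups overlap.

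Sod1 encodes the copper and zinc superoxide dismutase of the cytosol. Under relative scaling its normalised read count was 1299.6, 1954, 1535 and 1529 for the 4 WT libraries in replicate order, and 2002, 3772, 2589 and 2201 for the 4 Dp1Tyb libraries. Every Dp1Tyb library lay above every WT library, though the lowest Dp1Tyb and the highest WT values were close together, and replicate 2 was the highest library of both groups. The means were 1579 ± 272 and 2641 ± 792 (SD, n = 4 each), and the fitted fold was 1.67 with a 95% interval of 1.22 to 2.29 (log2 fold change 0.74 ± 0.20 SE, edgeR adjusted p = 0.857). Without Dp1Tyb replicate 2 the log2 fold change was 0.52, and over the omission of each library in turn it ran from 0.52 to 0.87.

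Scaled to the spike-ins, Sod1 had 1542, 1724, 1095 and 1788 normalised counts in WT and 2411, 2593, 2725 and 2892 in Dp1Tyb. The groups again did not overlap, and here the Dp1Tyb libraries were closer to each other than the WT libraries, with a coefficient of variation of 7.67% against 20.4%. The fitted fold was 1.73 (95% interval 1.12 to 2.66, log2 fold change 0.79 ± 0.32 SE, edgeR adjusted p = 0.99976). Sod1 ranked 20th by fold among the 112 tested genes of the duplicated region under relative scaling and 34th under spike-in scaling.

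The other superoxide dismutases are Sod2, the manganese enzyme of mitochondria (chromosome 17), and Sod3, the secreted enzyme of the extracellular matrix (chromosome 5). The relative normalised counts of Sod2 were 1011, 1089, 1216 and 1287 in WT and 1080.2, 1254, 1112 and 1113 in Dp1Tyb. All 4 Dp1Tyb values lay between the lowest and the highest WT value. The fitted fold was 0.990, with a 95% interval of 0.839 to 1.17 that leaves out 1.5. Sod3 had 458, 461, 862 and 1032 relative normalised counts in WT and 734, 573, 632 and 953 in Dp1Tyb, a spread wider than that of any other gene of the 10 in WT, with a coefficient of variation of 41.2%. The WT libraries split into a low pair and a high pair, and the Dp1Tyb libraries lay between the lowest and the highest WT value. Its fold was 1.03, with an interval of 0.666 to 1.59 that holds both 1 and 1.5.

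The 4 peroxidases had fitted folds of 1.03 to 1.21 under relative scaling. Catalase (Cat, chromosome 2), the peroxidase of peroxisomes, had 1291, 1281, 1124 and 1074 relative normalised counts in WT and 1126, 1339, 1298 and 1130.0 in Dp1Tyb. The groups overlapped, with Dp1Tyb replicates 2 and 3 just above the highest WT library, and the fold of 1.03 had an interval of 0.868 to 1.21. Gpx1 (chromosome 9), the selenium-containing glutathione peroxidase of the cytosol and mitochondria, had 3343, 3382, 4738 and 4911 in WT and 5442, 4409, 4228 and 4811 in Dp1Tyb. Its Dp1Tyb libraries were all above the WT mean of 4094, yet only replicate 1 was above the highest WT library, and the fold was 1.15 (95% interval 0.909 to 1.47). Its log2 fold change of 0.21 ran from 0.13 to 0.31 when each library was left out in turn.

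Gpx4 (chromosome 10), the selenoenzyme that reduces lipid hydroperoxides in membranes and protects cells from ferroptosis, had 2752, 2528, 2990.1 and 2997 relative normalised counts in WT and 3856, 3547, 3029 and 3239 in Dp1Tyb. It was the only gene of the 7 that are not duplicated in which the groups did not overlap, with the lowest Dp1Tyb library just above the highest WT library. The fold was 1.21 (95% interval 1.03 to 1.43, edgeR adjusted p = 0.99946), an interval that leaves out 1.5 as well as 1. The unadjusted p ran from 0.0163 to 0.0747 when each library was left out in turn. Under spike-in scaling the Gpx4 groups overlapped, at 2132 to 3504 normalised counts in WT and 2439 to 4645 in Dp1Tyb. Gpx4 has close copies elsewhere in the genome: 55.5% of the 100-base words of its principal transcript occur in transcripts of 2 other genes. Reads with several alignments had been discarded, and where along the transcript its counted reads lie was not tested.

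Prdx1 (chromosome 4), the thiol peroxidase of the cytosol that is recycled by thioredoxin, had 6763, 7687, 6779 and 6749 relative normalised counts in WT and 7474, 9948, 6983 and 6814 in Dp1Tyb. Replicate 2 was the highest library in each group, as it was for Sod1, and the other 6 libraries lay between 6749 and 7474. The fold was 1.12 (95% interval 0.906 to 1.37), and the log2 fold change of 0.16 came to 0.02 without Dp1Tyb replicate 2. The median log2 fold change of the 7 genes that are not duplicated was also 0.16 under relative scaling, being that of Prdx1, against 0.01 over all tested genes. It ran from 0.02 without Dp1Tyb replicate 2 to 0.21 without Dp1Tyb replicate 3.

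The carbonyl reductases include a duplicated neighbouring pair and a gene on another chromosome. Cbr1, the NADPH-dependent reductase of quinones, prostaglandins and lipid aldehydes, had 272, 329, 297 and 286 relative normalised counts in WT and 437, 569, 503 and 484 in Dp1Tyb. The gap between the groups was wide, as the lowest Dp1Tyb library was 437 and the highest WT library 329. The means were 296 ± 24.3 and 498 ± 54.6 (SD, n = 4 each), with a fold of 1.68 (95% interval 1.39 to 2.04, log2 fold change 0.75 ± 0.12 SE, edgeR adjusted p = 0.164). This p ranked 11th among the 16470 genes tested, and DESeq2 gave an adjusted p of 0.000101. Without each library in turn the edgeR p stayed between 9.3e-05 and 0.00071, and the log2 fold change between 0.68 and 0.82.

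Under spike-in scaling Cbr1 had 322, 290.2, 212 and 334 normalised counts in WT and 526, 391, 529 and 637 in Dp1Tyb, again without overlap. The fold was 1.80 (95% interval 1.13 to 2.85, edgeR adjusted p = 0.99976). The interval is wider than under relative scaling, and the biological coefficient of variation that edgeR estimated over all genes was 0.351 with the spike-in and 0.232 with the relative scaling.

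Cbr3, a close relative of Cbr1 with a narrower set of substrates, had 138, 170.2, 162 and 178 relative normalised counts in WT and 221, 264, 254 and 245 in Dp1Tyb. Both groups were tight and did not overlap. The means were 162 ± 17.4 and 246 ± 18.2 (SD, n = 4 each), with a fold of 1.52 (95% interval 1.23 to 1.87, log2 fold change 0.60 ± 0.14 SE, edgeR adjusted p = 0.499), and the adjusted p of DESeq2 was 0.0292. Under spike-in scaling the values were 164, 150.2, 116 and 209 in WT and 267, 182, 267 and 322 in Dp1Tyb. There Dp1Tyb replicate 2 lay below WT replicate 4, and the fold of 1.63 had an interval of 0.985 to 2.68 (edgeR adjusted p = 0.99976).

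Cbr4 (chromosome 8), the mitochondrial reductase that works with HSD17B8 in fatty acid synthesis, had the lowest mean count of the 10 in both groups. Its relative normalised counts were 150.3, 172, 121 and 94.3 in WT and 133, 205, 136 and 136 in Dp1Tyb. Dp1Tyb replicate 2 was the highest of the 8 and the other 7 libraries overlapped. The fold was 1.13, with an interval of 0.795 to 1.61 that holds both 1 and 1.5. Its log2 fold change of 0.18 was 0.01 without Dp1Tyb replicate 2, 0.05 without WT replicate 4 and 0.33 without WT replicate 2. At 93 to 194 raw counts per library it had the largest counting error of the 10, at most 10.4%.

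Scaled to the spike-ins, the 7 genes that are not duplicated had wider standard errors of the fitted difference, and the groups overlapped in each. Their folds were 1.06 for Sod2, 1.15 for Sod3, 1.09 for Cat, 1.27 for Gpx1, 1.31 for Gpx4, 1.17 for Prdx1 and 1.18 for Cbr4. Each 95% interval held both 1 and 1.5. Leaving out each library in turn, the log2 fold change ran from 0.21 to 0.56 for Gpx1 and 0.25 to 0.54 for Gpx4. That of Prdx1 ran from 0.085 to 0.31 and that of Cbr4 from 0.0797 to 0.43.

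**Figure D2:**
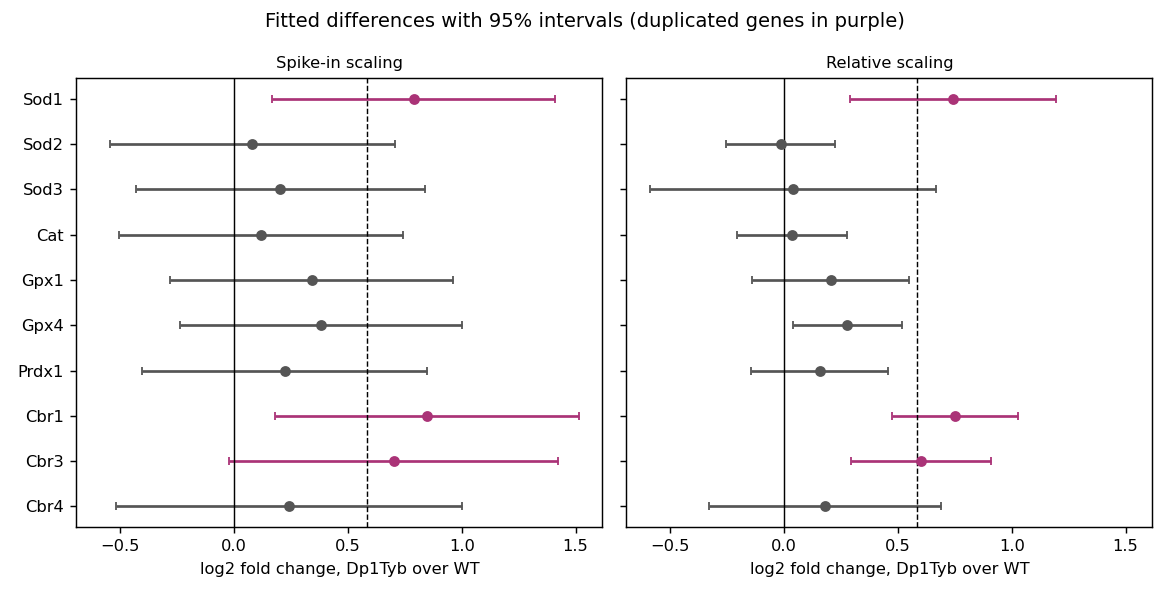
Fitted log2 fold change of Dp1Tyb over WT with its 95% interval (edgeR, 4 libraries per group) for each gene, under spike-in scaling on the left and relative scaling on the right. The solid line marks no difference and the dashed line a fold of 1.5, the ratio of gene copies; under relative scaling the intervals of the 3 duplicated genes (purple) hold the dashed line and not the solid one, while those of Sod2, Cat, Gpx1, Gpx4 and Prdx1 end below the dashed line.

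Read as a group, 10 of 10 genes had a log2 fold change above 0 under spike-in scaling, where 70.4% of all tested genes and 95.5% of those in the duplicated region did. Under relative scaling 9 of 10 did, beside 51.2% of all tested genes and 90.2% of those in the region. The median log2 fold change of the 10 was 0.29 under spike-in and 0.19 under relative scaling, against 0.11 and 0.01 over all 16470 genes. Without single libraries the medians of the 10 ran from 0.20 to 0.54 and from 0.19 to 0.30. Their counts above 0 ran from 8 to 10 under each scaling. These figures include the 3 duplicated genes. The other 7 had a median of 0.22 under spike-in and 0.16 under relative scaling, with 7 and 6 of them above 0. Without single libraries their count above 0 ran from 5 to 7 under each scaling, and their spike-in median from 0.085 to 0.31. The medians over all genes ran from -0.02 to 0.28 under spike-in and from -0.002 to 0.02 under relative scaling. Every Dp1Tyb library lay above every WT library in 2 of the 10 genes under spike-in scaling (Sod1 and Cbr1), as in 0.285% of all tested genes and 14.3% of those in the duplicated region. Under relative scaling this held for 4 of the 10 (Sod1, Cbr1, Cbr3 and Gpx4), beside 1.64% of all tested genes and 42% of those in the region. Against the ratio of gene copies, the 95% intervals of the 3 duplicated genes held a fold of 1.5 under both scalings. Of the other 7, the intervals of 5 left out 1.5 under relative scaling, and those of Sod3 and Cbr4 did not. Under spike-in scaling the intervals of all 10 held 1.5, so that at this spread none of the 7 was told apart from a gene expressed by copy number.

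The genes beside the duplicated ones gave a local comparison. Scaf4, which follows Sod1 on the opposite strand and overlaps its span without sharing exon bases, had a log2 fold change of 0.46 ± 0.11 (SE, relative scaling), and Tiam1 on the other side of Sod1 had 0.42 ± 0.11. Dop1b, after Cbr3, had 0.53 ± 0.10, and Setd4, before Cbr1, had 0.20 ± 0.18. Without single libraries Setd4 ran from 0.12 to 0.33, and under spike-in scaling from 0.11 to 0.55. Under relative scaling the Dp1Tyb libraries lay above the WT libraries for Tiam1, Scaf4 and Dop1b and overlapped them for Setd4. Under spike-in scaling the groups overlapped in all 4 genes, with log2 fold changes of 0.57 ± 0.32 for Tiam1, 0.60 ± 0.32 for Scaf4, 0.65 ± 0.33 for Dop1b and 0.29 ± 0.41 for Setd4. None of the 4 passed an adjusted p of 0.05 in edgeR, though DESeq2 called Dop1b under relative scaling. In edgeR the unadjusted values were 0.00395, 0.00221, 0.000361 and 0.303 for Tiam1, Scaf4, Dop1b and Setd4.

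A ratio of 2 genes within a library needs no scaling, and sets a duplicated enzyme beside another enzyme of the set. The ratio of Sod1 to Sod2 counts was 1.29, 1.79, 1.26 and 1.19 in WT and 1.85, 3.01, 2.33 and 1.98 in Dp1Tyb. All 4 Dp1Tyb ratios were above the WT ratios, by 1.65 times on average. The ratio of Sod1 to Cat was 1.01, 1.53, 1.37 and 1.42 in WT and 1.78, 2.82, 1.99 and 1.95 in Dp1Tyb, higher by 1.60 times. That of Sod1 to Prdx1 was 0.192 to 0.254 in WT and 0.268 to 0.379 in Dp1Tyb, higher by 1.48 times. For these 3 ratios the groups did not overlap (exact permutation test, two-sided, p = 0.0286 each, and 0.0643 after Benjamini-Hochberg adjustment over the 9 ratios compared). Sod1 to Gpx1 was higher by 1.40 times (exact permutation p = 0.200, adjusted 0.257). Sod1 to Gpx4 was higher by 1.35 times (exact permutation p = 0.171, adjusted 0.257). Sod1 to Sod3 was higher by 1.52 times (exact permutation p = 0.286, adjusted 0.286). In each of these the groups overlapped, and the highest library was Dp1Tyb replicate 2, at 0.855, 1.06 and 6.58.

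Among the carbonyl reductases, the ratio of Cbr1 to Cbr4 was 1.80 to 3.02 in WT and 2.77 to 3.69 in Dp1Tyb, 1.47 times higher with overlap (exact permutation p = 0.0571, adjusted 0.103). Cbr3 to Cbr4 was 1.33 times higher, also with overlap (exact permutation p = 0.257, adjusted 0.286). Of the 2 duplicated neighbours, Cbr3 stood at 0.509, 0.518, 0.547 and 0.625 of the Cbr1 counts in WT and at 0.507, 0.465, 0.506 and 0.507 in Dp1Tyb. The Dp1Tyb ratios were all below the WT ratios, by a factor of 0.904, although the lowest WT and the highest Dp1Tyb ratio were almost equal (exact permutation p = 0.0286, adjusted 0.0643). The log2 ratio differed by -0.15 between the groups, by -0.08 without WT replicate 4, and the exact permutation p was 0.143 to 0.171 without any single Dp1Tyb library. None of the 9 ratios passed 0.05 after adjustment.

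**Figure D3:**
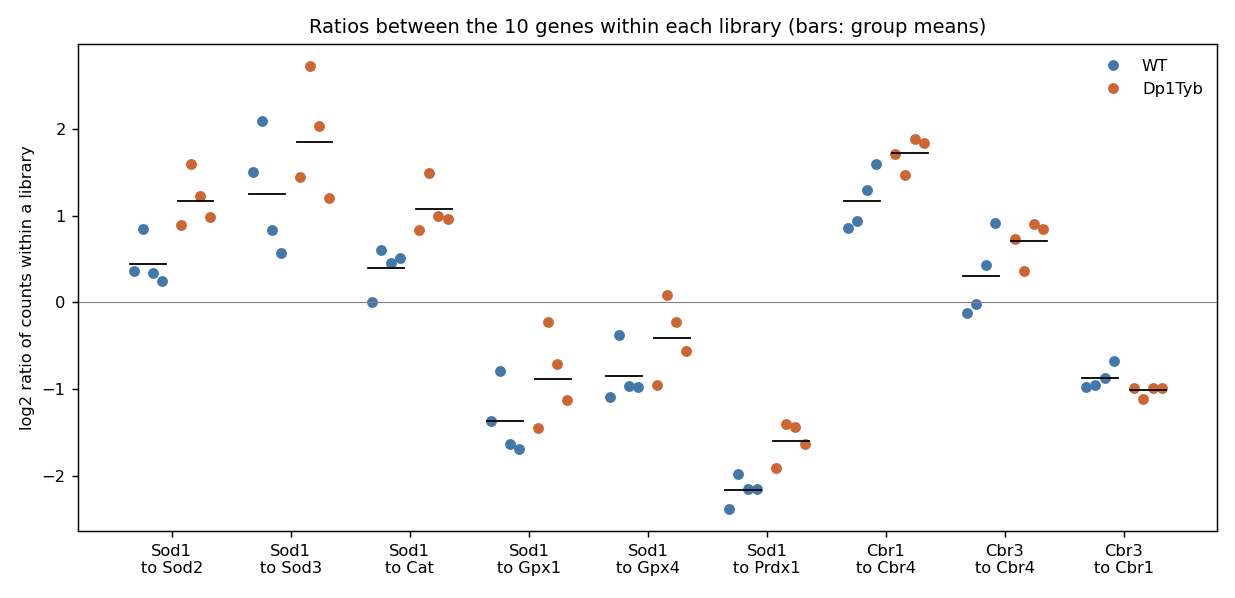
The 9 ratios between genes within each library, as log2 of the ratio of counts, with 1 point per library, WT in blue, Dp1Tyb in orange and a bar at each group's mean (n = 4). The ratios of Sod1 to Sod2, Cat and Prdx1 separate the groups upwards, that of Cbr3 to Cbr1 separates them narrowly downwards, and the other 5 overlap.

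Levels per kilobase set these differences beside the levels of the 10 genes. In RPKM (counts per kilobase of the principal transcript scaled to library size, relative scaling), the highest of the 10 by this length was Prdx1, with 382 ± 25.2 against 426 ± 79.5 (WT against Dp1Tyb, SD, n = 4 each). Gpx1 followed at 183 ± 37.8 and 211 ± 24.0, Gpx4 at 141 ± 11.2 and 171 ± 18.0, and Sod1 at 118 ± 20.3 and 197 ± 59.1. The next step was large, to Cat at 21.8 ± 2.01 and 22.4 ± 2.04. Cbr1 had 11.4 ± 0.940 RPKM in WT and 19.3 ± 2.11 in Dp1Tyb, Sod2 9.40 ± 1.01 and 9.31 ± 0.633, Sod3 9.01 ± 3.71 and 9.26 ± 2.14, and Cbr3 6.64 ± 0.711 and 10.1 ± 0.744. Cbr4 was the lowest, at 1.49 ± 0.377 RPKM in WT and 1.69 ± 0.389 in Dp1Tyb.

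Neighbours in this order were mostly separate, since Prdx1 was above Gpx1, Gpx1 above Gpx4, Sod1 above Cat, Cat above Cbr1, Cbr1 above Sod2 and Cbr3 above Cbr4 in all 8 libraries. Gpx4 was above Sod1 in 3 of 4 WT libraries and in 1 of 4 Dp1Tyb libraries, so that by this length the order of their means turned between the genotypes. Sod2 was above Sod3 in 2 of 4 libraries of each genotype, and Sod3 above Cbr3 in 3 of 4 WT and 2 of 4 Dp1Tyb libraries. Within each genotype the order of those 3 pairs varied from library to library. The order rests on the length used. Over all annotated exon bases, Sod1 has 3970 bases in place of the 641 of its principal transcript. At 19.0 RPKM in WT it then stood below Cat, and did so in 3 of 4 WT libraries. In Dp1Tyb it stood above Cat by the same length, at 31.8 against 22.4 RPKM, and did so in all 4 libraries. The mean of Gpx4 was then above that of Sod1 in both genotypes, at 78.2 RPKM in WT and 94.9 in Dp1Tyb. By that length Gpx1 was the highest of the 10, at 136 RPKM in WT, and stood above Prdx1, at 110.0, in 6 of 8 libraries. Sod1 made up 86.4% ± 3.49 of the summed RPKM of the 3 superoxide dismutases in WT libraries and 90.9% ± 2.58 in Dp1Tyb libraries (SD, n = 4 each), and the difference was within the spread (exact permutation test, p = 0.114). The difference of 4.56 percentage points was 6.04 without WT replicate 2 (exact permutation p = 0.0286) and 3.37 without WT replicate 4 (exact permutation p = 0.200), and p ran from 0.114 to 0.200 when another single library was left out. Cbr1 made up 58.5% ± 0.981 of the carbonyl reductase RPKM in WT and 62.1% ± 0.478 in Dp1Tyb, with no overlap (exact permutation p = 0.0286, adjusted over 3 shares 0.0857). These shares also rest on the length: over all exon bases Sod1 made up 57.1% in WT and 67.5% in Dp1Tyb, and Cbr1 43.4% and 46.9%.

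**Figure D4:**
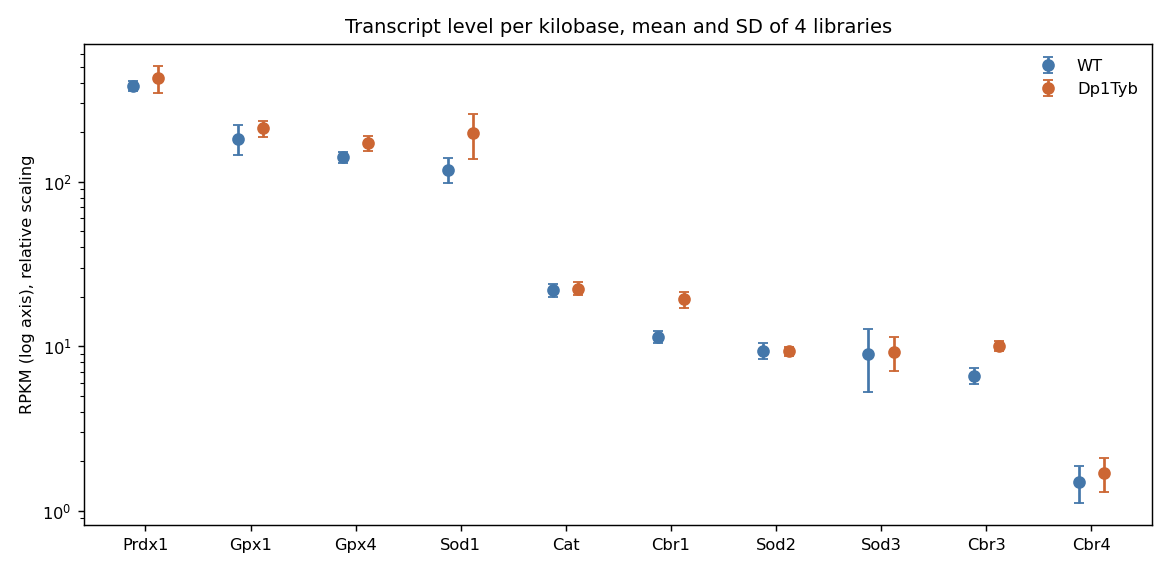
Transcript level of the 10 genes in RPKM on a log axis, ordered by the WT mean, with WT in blue and Dp1Tyb in orange (mean and SD of 4 libraries). Prdx1, Gpx1, Gpx4 and Sod1 stand above 100 RPKM in both groups, and Cbr4 lies below 2.

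The enzymes that supply these reactions were examined as 9 lists of 61 genes, of which 55 were counted and tested. None was called by edgeR or DESeq2 under either scaling, and 5 had an unadjusted p under 0.05 in edgeR under relative scaling, beside 4.27% of all tested genes, and 1 under spike-in scaling, beside 1.17%. Under relative scaling 36 of the 55 had a higher and 19 a lower fitted level in Dp1Tyb, where 51.2% of all tested genes were higher, and the counts above 0 in single lists below stand beside the same share. Under spike-in scaling 43 were higher and 12 lower, beside 70.4% of all tested genes higher, and the groups overlapped in all 55 genes.

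Among the other peroxiredoxins, all 5 had log2 fold changes above 0 under relative scaling, from 0.12 to 0.22 with a median of 0.16. Prdx2, the peroxiredoxin abundant in red cells, had 1956 ± 42.7 relative normalised counts in WT and 2275 ± 240 in Dp1Tyb, without overlap under this scaling (SD, n = 4 each, edgeR adjusted p = 0.99946). Prdx5 had a log2 fold change of 0.22 ± 0.12 (SE). The glutathione peroxidases Gpx8, of the endoplasmic reticulum, and Gpx3, of plasma, had 0.18 ± 0.12 and 0.12 ± 0.21, and the median of the 3 tested members of that list was 0.15.

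The thioredoxin system, which returns electrons to the peroxiredoxins, had 5 of 7 genes above 0 and a median of 0.09. Txn2, mitochondrial thioredoxin, had 1354 ± 126 relative normalised counts in WT and 1604 ± 140 in Dp1Tyb, with overlap (edgeR adjusted p = 0.99946). Txnip, the thioredoxin-binding protein, had a log2 fold change of 0.48 ± 0.37 under relative and 0.69 ± 0.32 under spike-in scaling, which came to 0.01 and 0.15 without Dp1Tyb replicate 1. Its Dp1Tyb libraries ran from 928 to 3031 relative normalised counts, overlapping 754 to 1554 in WT. The genes of glutathione synthesis and recycling had a median of 0.08, with 6 of 10 above 0. G6pdx, the first enzyme of the pentose phosphate route to NADPH, had 0.23 ± 0.12, and Glrx5, a mitochondrial glutaredoxin, 0.18 ± 0.11.

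Copper reaches Sod1 through the chaperone Ccs and the importer Slc31a1. All 4 genes of copper supply had log2 fold changes between 0.08 and 0.16 under relative scaling, with a median of 0.10, beside 0.74 for Sod1 itself. Atox1, a copper chaperone, had 0.16 ± 0.13 and Slc31a1 0.12 ± 0.12. Without single libraries Atox1 ran from 0.12 to 0.27 and Slc31a1 from 0.034 to 0.21. Selenoprotein synthesis, which makes Gpx1 and Gpx4 possible, had a median of 0.02 over 5 genes, with Sephs2 at -0.18 ± 0.11 and Eefsec at 0.15 ± 0.13. Mecr and Mcat, of the mitochondrial fatty acid synthesis pathway in which Cbr4 works, had 0.07 ± 0.14 and 0.08 ± 0.22. The other carbonyl-reducing enzymes had a median of 0.12 over 9 genes, with Dhrs4 at 0.26 ± 0.20 and Akr1a1 at 0.13 ± 0.10. When single libraries were left out, Dhrs4 ran from 0.15 to 0.40 and Eefsec from 0.08 to 0.21.

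The oxidases that produce superoxide were the list with the lowest median, -0.30 under relative and -0.23 under spike-in scaling, and 7 of its 9 tested genes had lower levels in Dp1Tyb under relative scaling. Nox4, the oxidase of fibroblasts and other stromal cells, went the other way, with 656 ± 43.1 relative normalised counts in WT and 833 ± 44.6 in Dp1Tyb, without overlap under this scaling (SD, n = 4 each, edgeR adjusted p = 0.903). Ncf1, a subunit of the phagocyte oxidase, had 101, 155, 120 and 76.1 relative normalised counts in WT and 71.1, 75.9, 68.9 and 56.5 in Dp1Tyb, all 4 below WT (log2 fold change -0.73 ± 0.23 SE, edgeR adjusted p = 0.99946). Scaled to the spike-ins, the log2 fold changes of Nox4 and Ncf1 were 0.45 ± 0.32 and -0.60 ± 0.42. Macrophage markers were lower beside Ncf1: their summed level was 258 to 359 CPM in WT and 144 to 292 in Dp1Tyb, with overlap. All 6 had lower fitted levels under relative scaling, where 51.2% of all tested genes were higher. Of the 6, 5 had an unadjusted p under 0.05 in edgeR, beside 4.27% of all tested genes. At an adjusted p under 0.05 edgeR called none, beside 0.0182% of all tested genes. DESeq2 called 1, beside 0.363% of all genes with an adjusted p. The part of such cells in the values of Ncf1 was not tested.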

How the data were processed

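RNAseq counts of 8 MEF libraries, 4 WT and 4 Dp1Tyb, were analysed, with groups and replicate numbers from the sample titles. The submitters' processing notes name Trim Galore, TopHat2 2.0.12, HTSeq and DESeq2 1.6.3, with GRCm38 as the build. The authors discarded reads with several alignments and deposited raw counts per gene and spike-in, with no normalisation. Which annotation was counted, and with which strand setting, is not given in the sources used here. The deposited normalised table and the deposited DESeq2 results (means, log2 fold changes with standard errors, test scores and p-values) were not used. No column belonged to another sample.

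Gene positions and lengths came from GENCODE M21 (GRCm38), with the shortest APPRIS principal transcript as gene length, and promoters and their motifs from RefSeq (GRCm38.p6). Size factors were median-of-ratios factors of the 63 spike-ins (spike-in scaling) or TMM factors of the endogenous genes (relative scaling). After filterByExpr, 16470 genes with 99.9% of the counts were tested by the two-sided quasi-likelihood test of edgeR 4.0.16 (limma 3.58.1, R 4.3.3), with Benjamini-Hochberg adjustment over all of them and a threshold of 0.05. Within-library ratios used a pseudocount of 0.5 and the exact permutation test, with 70 possible assignments. The procedure was tested on simulated data. Alternatives were DESeq2 1.42.0, upper-quartile and median-of-ratios factors, a minimum of 10 counts per library or no filter, a pseudocount of 5, other spike-in factors, the replicate block and each library left out.

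All 10 genes are named. From each pathway list the genes called in either fit were to be named, otherwise the 2 with the smallest p under relative scaling, and the nearest tested protein-coding gene on each side of the duplicated genes. Marker lists covered fibroblasts, macrophages, endothelial, skeletal muscle, erythroid, epithelial and neural cells. The summed levels of endothelial (33.0 to 56.1 CPM in WT, 31.6 to 78.7 in Dp1Tyb), epithelial (4.47 to 14.8 and 3.09 to 11.3), neural (43.7 to 71.4 and 32.6 to 72.2), skeletal muscle (10.2 to 28.4 and 5.41 to 39.7, Myod1 not analysed here) and the single erythroid marker analysed, Alas2 (4.24 to 7.15 and 2.13 to 5.72), overlapped between the groups. The genes and lists were chosen with earlier results of these data known. The labels do not say that the cultures came from separate embryos, so p-values measure only the spread between these samples. Libraries held 17698900 to 26471758 counts, and the counting error of any of the 10 genes was at most 10.4%. 1 gene of the pathway lists is not reported here.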

Additional observations from a re-analysis of the deposited data

Results flagged for a closer look

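Groups of 4 libraries were searched for a library far from the others, which chance alone flags in about 1 in 20 groups, and 4 of the 58 groups of normalised counts and ratios met it. Prdx1 had 7687 relative normalised counts in WT replicate 2, above 6749 to 6779 in the other WT libraries. Cbr4 had 205 relative normalised counts in Dp1Tyb replicate 2, above 133 to 136 in the other Dp1Tyb libraries. The log2 ratio of Sod1 to Gpx4 was -0.37 in WT replicate 2, the highest of the WT libraries. The log2 ratio of Cbr3 to Cbr1 was -1.11 in Dp1Tyb replicate 2, the lowest of the Dp1Tyb libraries. All 4 fell in a library numbered replicate 2.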

How the results depend on the processing

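Of the 20 log2 fold changes of the 10 genes under the 2 scalings, 14 kept their direction under every alternative run and 6 did not, those of Sod2, Sod3 and Cat under each scaling. With upper-quartile factors the relative values of Sod3 and Cat were -0.00075 and -0.011. Leaving out each library in turn, the spike-in values ran from -0.029 to 0.25 for Sod2, -0.095 to 0.61 for Sod3, -0.0297 to 0.28 for Cat, -0.0198 to 0.24 for Mecr, -0.0049 to 0.26 for Mcat and -0.25 to 0.029 for Sephs2, and the relative values from -0.067 to 0.047 for Sod2, -0.12 to 0.29 for Sod3, -0.0098 to 0.084 for Cat, -0.028 to 0.34 for Gpx3, -0.036 to 0.13 for Mecr and -0.028 to 0.26 for Mcat. The count of all genes called was 2 under spike-in and 3 under relative scaling. It became 0 under both with at least 10 counts in every library, 54 under relative scaling with DESeq2, 2 to 8 under spike-in scaling without a library and 1 under relative scaling without any single library. DESeq2 called 2 of the 10 genes under relative scaling. The Sod1 share of superoxide dismutase RPKM differed by 3.37 to 6.04 percentage points without single libraries. With the replicate block 9 and 7 genes were called, none of the 10 among them, and the adjusted p of Sod1 and Cbr1 were 0.0564 and 0.0535 under relative scaling. For the ratios the paired sign-flip test cannot go below 0.125. Libraries of the same number correlated with r from 0.029 to 0.52 (3 of 4 above 0.1), and those of unlike number with r from -0.45 to 0.32. Of the 8 libraries, 6 correlated best with their own number. Whether libraries of the same number share an origin was not tested. As 1 pair was not above 0.1 and no label gives the numbers a meaning, they were not taken as pairing. The causes of these shifts were not tested.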
